A study of Homo sapiens with 30 samples.

Results

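CD69 and 5 other cell surface molecules of T cell activation, CD44, CD82, CD83, CD38 and TFRC, were followed through a time course of activated Jurkat cells. The genes were taken by symbol from a table of 54300 gene symbols. All 6 were present, and all 6 passed the filter on low counts that left 21554 symbols for testing. Jurkat E6-1 is an established human T cell leukaemia line. The unedited line (WT) was compared with cells in which isoform 1 of SLAMF6 was knocked out (KO), which the treatment protocol calls SLAMF6∆17-65. SLAMF6 is a receptor of the SLAM family on T cells. The submitters' title names isoform 3 of SLAMF6, as over-expressed, and no label tells whether the KO cells are 1 clone. Cells were unstimulated (0 h) or activated with the phorbol ester PMA at 200 ng/ml and the calcium ionophore ionomycin at 300 ng/ml, and were sampled at 6, 12, 24 and 36 h. The labels give these times without a unit, and hours are assumed here, the unit in which the protocol states the 48 h of its ELISA. There were 30 libraries, 3 for each of the 10 groups. In the sample titles the letter before the number is A for WT and B for KO up to 24 h, and C for both genotypes at 36 h. A difference that goes with the letter C cannot be told apart from the time of 36 h. Up to 24 h, a difference that goes with the letters A and B cannot be told apart from genotype. Nothing in the labels ties the libraries of a group to separate cultures, so the p-values measure the spread between libraries, which may be technical.

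PMA activates protein kinase C and ionomycin raises intracellular calcium, and the pair bypasses the T cell receptor to switch on AP-1, NF-kB and NFAT. CD69 is among the earliest surface proteins of an activated lymphocyte, a C-type lectin that binds the sphingosine phosphate receptor S1PR1 and takes it off the surface. CD44 binds hyaluronan, CD82 is a tetraspanin that organises other membrane proteins, and CD83 is an immunoglobulin family protein best known from mature dendritic cells. CD38 is an ectoenzyme that consumes NAD, and TFRC is the transferrin receptor that brings iron into dividing cells.

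Total counts per library ran from 5.64 to 28.2 M with a median of 20.5 M, and 3 libraries were under 10 M. Levels are TMM-scaled counts per M counts (CPM). They are not divided by transcript length, so they compare groups for 1 gene and not genes with each other. In bulk RNA, fewer expressing cells and less RNA per cell cannot be told apart. The 10 T cell markers examined were all above 1 CPM in some group. The summed level of 8 monocyte and dendritic cell markers was 59.2 to 153 CPM per library, and that of 6 NK cell markers 0.977 to 14.6 CPM. MS4A1, a B cell marker, and CD14 and LYZ, markers of monocytes, did not exceed a group mean of 0.835 CPM. Other such markers were higher: the group means of CD79A and BLK of the B cell lineage ran from 14.2 to 31.2 and from 7.37 to 23.4 CPM, and those of CD1C of dendritic cells from 69.1 to 139.9 CPM. SLAMF6 itself had a mean of 21.2 ± 3.40 CPM (SD, n = 3) in WT and 19.3 ± 1.47 CPM in KO at 0 h, and of 105 ± 5.90 and 139 ± 12.8 CPM at 36 h. A count per gene sums the isoforms, so it does not check the knockout of 1 of them.

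Of the 30 libraries, replicate 1 of KO at 12 h and replicate 2 of KO at 6 h lay farthest from the other libraries of their groups over CD69, CD82, CD83, CD38 and TFRC. Each differed from the mean of the other 2 libraries by an average of 0.51 (log2) over these 5 genes. Changes from 0 h of KO at these times are given with and without them, and so are the other results whose call changed without them.

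All adjusted p-values below are Benjamini-Hochberg values over the 21554 tested symbols from edgeR's quasi-likelihood test in 1 fit of the 30 libraries, and a gene was called under 0.05. Most of the 6 genes differed from 0 h at every later time. The only unstimulated cells were those of 0 h, so time in culture cannot be told apart from stimulation. Against WT at 0 h, all 6 were called at 6 h, where 22.4% of all tested symbols were called, and all 6 at 12 h, where 30.2% were. At 24 h and at 36 h 5 of 6 were called in WT, beside 34.2% and 39% of all tested symbols. In KO, 5 of 6 were called at each later time against KO at 0 h, beside 27.1% of tested symbols at 6 h, 27.8% at 12 h, 32.8% at 24 h and 36.6% at 36 h. CD69, CD44 and CD82 rose and TFRC fell at all 4 times in both genotypes. CD83 was called at 4 times in WT and at 6 and 12 h in KO, and CD38 at 6 and 12 h in WT and at 24 and 36 h in KO. The 4 later times of a genotype share its 0 h libraries.

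**Figure D1:**
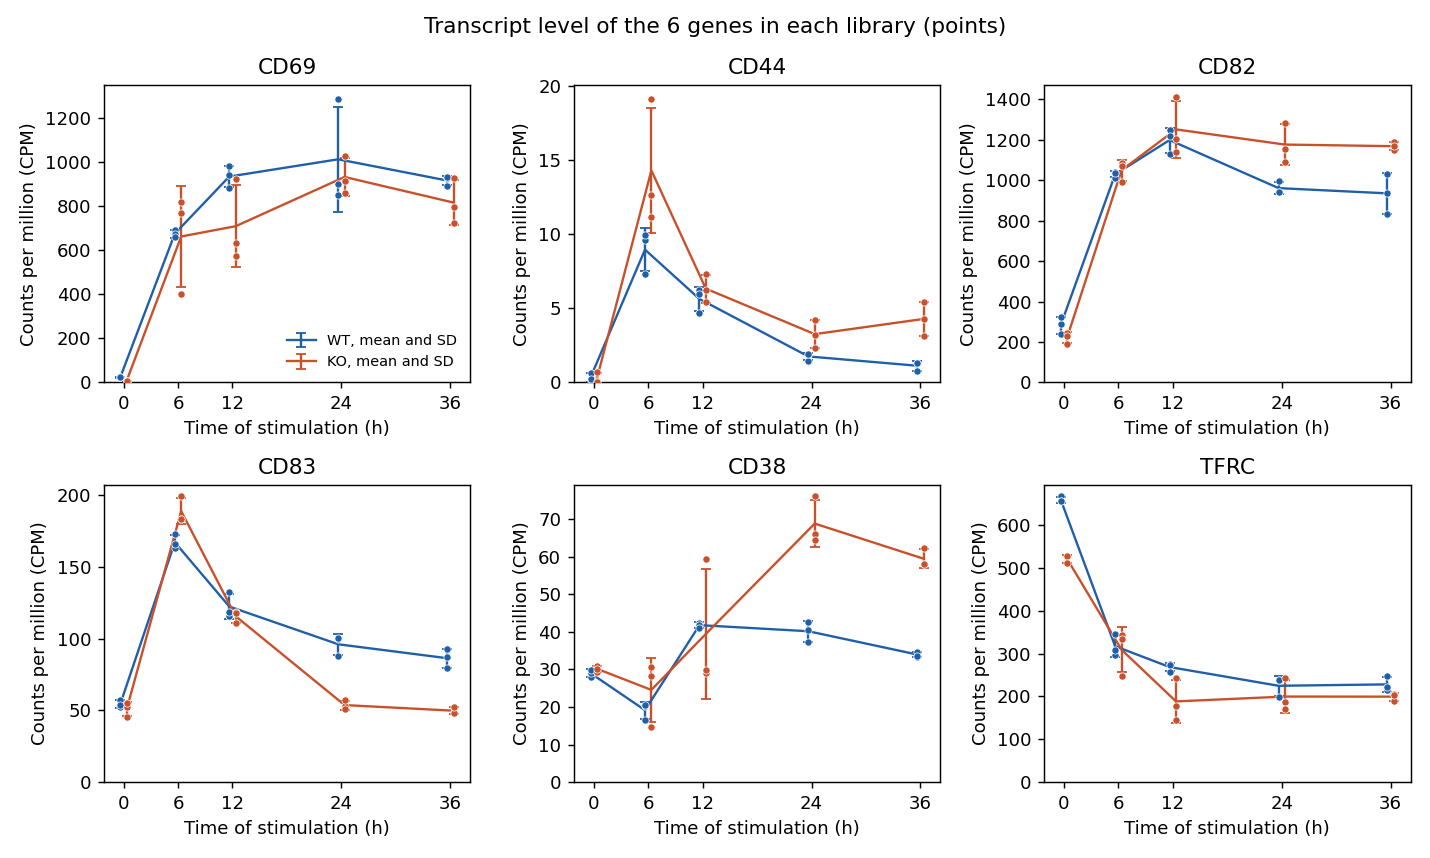
Levels of the 6 genes in CPM against the time of stimulation in hours, 1 panel per gene with its own axis from 0. Points are libraries, and lines and bars are the mean and SD of 3 libraries of WT (blue) and KO (orange). CD69, CD44 and CD82 were lowest at 0 h and TFRC was highest at 0 h, CD83 and CD44 peaked at 6 h, and CD83 and CD38 separated by genotype at 24 and 36 h.

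Between neighbouring later times fewer of the genes moved. From 6 to 12 h, 2 of 6 were called in WT and 4 of 6 in KO, beside 9.49% and 10.9% of all tested symbols. From 12 to 24 h, 3 of 6 were called in each genotype, beside 14.8% in WT and 14.5% in KO. From 24 to 36 h none of the 6 was called in WT or in KO by edgeR or by DESeq2, beside 7.06% and 7.34%, and 0 of 6 had an unadjusted p under 0.05 in edgeR in either genotype.

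The genes called for KO against WT varied in number with time. At 0 h, 2 of 6 were called (6.07% of all tested symbols), at 6 h none (9.93%), at 12 h 1 (11.4%), at 24 h 2 (9.55%) and at 36 h 4 (13.5%). At 6 h DESeq2 also called none, and 1 of 6, CD44, had an unadjusted p under 0.05 in edgeR. The joint test of the 5 genotype differences called all 6 genes, beside 30.1% of tested symbols. The mean of the 5 differences called 4 of 6, beside 30.4%, with CD69, CD83 and TFRC lower and CD38 higher in KO. The change from 0 h differed between genotypes, by the joint test of the 4 later times, for CD69, CD44, CD82 and CD83, 4 of 6 beside 9.78%. The call was lost for CD44 without replicate 1 of WT at 0 h (adjusted p = 0.0671) and for CD82 without replicate 3 of WT at 0 h (0.0671). At the single times this difference was called for 1 of 6 at 6 h (3.09%), 1 at 12 h (2.04%), 3 at 24 h (3.68%) and 4 at 36 h (9.34%).

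CD69 (chr12:9752486-9760901, minus strand, on GRCh38) was low before stimulation and high at every later time. At 0 h its level was 26.4, 24.0 and 22.8 CPM in the WT libraries and 8.71, 8.46 and 8.53 CPM in the KO libraries. The KO libraries were all lower, with no overlap. The difference was -1.51 ± 0.228 (log2, SE), with an adjusted p of 0.000106.

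After 6 h, CD69 was at 694, 674 and 658 CPM in WT and 769, 399 and 819 CPM in KO. At 12 h the values were 939, 980 and 884 CPM in WT and 922, 574 and 631 CPM in KO. The WT libraries of these times lay close together, whereas replicate 2 of KO at 6 h was far below and replicate 1 of KO at 12 h far above the others of its group. At 24 h CD69 was at 851, 900 and 1286 CPM in WT and 859, 912 and 1026 CPM in KO, with replicate 3 of WT apart. At 36 h it was at 926, 891 and 931 CPM in WT and 797, 725 and 927 CPM in KO. WT and KO overlapped at each of the 4 later times.

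The rise of CD69 over 0 h in WT was 27.6-fold at 6 h, 38.2-fold at 12 h, 41.4-fold at 24 h and 37.5-fold at 36 h, with adjusted p-values from 1.12e-14 to 7.62e-16. In KO it was 77.1-fold, 82.5-fold, 108-fold and 95.0-fold. KO minus WT in the log2 change from 0 h was 1.48 ± 0.296 at 6 h (adjusted p = 0.00473), 1.11 ± 0.296 at 12 h (0.0479), 1.39 ± 0.296 at 24 h (0.00691) and 1.34 ± 0.296 at 36 h (0.0046). These 4 differences share the 0 h libraries in which KO was lower. The call at 12 h was lost without any 1 library of WT at 0 or 12 h or of KO at 0 h, and without replicate 1 of KO at 12 h, with values from 0.89 without replicate 1 of KO at 12 h to 1.17 without replicate 3 of WT at 0 h.

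KO against WT at the later times was not called for CD69, with log2 differences of -0.03 ± 0.189 at 6 h, -0.40 ± 0.189 at 12 h, -0.12 ± 0.189 at 24 h and -0.17 ± 0.189 at 36 h. Without replicate 2 of KO at 6 h the difference at 6 h was 0.24 and still not called. Without replicate 1 of KO at 12 h the difference at 12 h was -0.62 and was called, with an adjusted p of 0.0394. Without replicate 3 of WT at 24 h the difference at 24 h was 0.11. In the order of its 10 group means, CD69 ran from KO at 0 h over WT at 0 h to the 8 stimulated groups, and each pair of neighbours among those 8 overlapped.

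CD44 (chr11:35138870-35232402, plus strand), the hyaluronan receptor, was scarce in these cells. At 0 h it had 17, 1 and 6 counts in the WT libraries and 2, 4 and 0 counts in the KO libraries, where 3 counts correspond to 0.107 CPM in the library with none. The 4 counts came from the shallowest library, of 5.64 M. The fitted difference of KO against WT at 0 h, -1.72 ± 0.731 (log2), was not called (adjusted p = 0.167). Without that library it was -3.09 and called (adjusted p = 0.0232), on 2 counts in KO. At 6 h CD44 was at 7.32, 9.61 and 9.96 CPM in WT and 12.6, 11.2 and 19.1 CPM in KO. All libraries at 6 h were above all at 0 h, and the KO libraries were all above the WT libraries.

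At the later times the level of CD44 was below that at 6 h in both genotypes. It was 6.23, 5.96 and 4.71 CPM in WT and 5.45, 6.21 and 7.34 CPM in KO at 12 h, and 1.89, 1.48 and 1.91 CPM in WT and 3.19, 2.35 and 4.25 CPM in KO at 24 h. At 36 h it was at 1.31, 0.753 and 1.32 CPM in WT and 4.31, 3.14 and 5.42 CPM in KO. The genotypes overlapped at 12 h and did not overlap at 24 and 36 h. In WT the fitted change from 0 h was 4.50 ± 0.415 (log2) at 6 h and 1.59 ± 0.477 at 36 h, with adjusted p-values of 5.81e-11 and 0.00703. The second of these was lost without replicate 3 of WT at 0 h, at 1.21. In KO the fitted changes were 6.89 ± 0.512 at 6 h and 5.16 ± 0.541 at 36 h, and they rest on the 6 counts of KO at 0 h.

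At 36 h CD44 was 3.62-fold higher in KO than in WT, a log2 difference of 1.86 ± 0.363 with an adjusted p of 0.000349. The 0 h libraries do not enter this difference, but they share the fit and its estimate of the spread. At 24 h the difference of 0.89 ± 0.356 was not called (adjusted p = 0.119), nor was that of 0.67 ± 0.296 at 6 h (0.162). KO minus WT in the change from 0 to 36 h was 3.58 ± 0.805 (adjusted p = 0.00327), and was 2.63 and no longer called without replicate 1 of WT at 0 h. From 6 to 12 h CD44 was at -0.67 (log2) in WT, not called (adjusted p = 0.17), and fell by 1.18 in KO, where the call was lost without replicate 3 of KO at 6 h at -0.91. From 12 to 24 h it fell by 1.67 in WT (adjusted p = 0.000627) and by 0.95 in KO (adjusted p = 0.0389). From 24 to 36 h it was at -0.58 in WT and 0.39 in KO, neither called. The KO call from 12 to 24 h was lost without replicate 2 (-0.96) or 3 (-0.81) of KO at 12 h and without replicate 1 (-0.93) or 2 (-0.76) of KO at 24 h. It was also lost with library totals alone (-0.89, adjusted p = 0.0596). An antisense gene, CD44-AS1, overlaps exons of CD44 in GENCODE 29, and the strand setting of the counting is not given in the sources used here, so its reads cannot be told apart from those of CD44.

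CD82 (chr11:44564427-44620363, plus strand), the tetraspanin, was already well expressed at 0 h and was higher at every later time. At 0 h it was at 288, 239 and 322 CPM in WT and 243, 190 and 231 CPM in KO. At 6 h it was at 1011, 1041 and 1033 CPM in WT and 1086, 1071 and 988 CPM in KO, and at 12 h at 1246, 1128 and 1219 CPM in WT and 1409, 1203 and 1139 CPM in KO. Stimulated and unstimulated libraries were far apart, and the genotypes overlapped at 0, 6 and 12 h. At 24 h CD82 was at 943, 996 and 941 CPM in WT and 1155, 1087 and 1284 CPM in KO. At 36 h it was at 1032, 833 and 938 CPM in WT and 1149, 1186 and 1167 CPM in KO. At both of these times every KO library was above every WT library.

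The change of CD82 from 0 h was 1.86 ± 0.107 (log2) at 6 h and 1.72 ± 0.107 at 36 h in WT, and 2.24 ± 0.109 and 2.40 ± 0.110 in KO, with adjusted p-values at 6 h of 1.57e-16 in WT and 4.64e-19 in KO. KO minus WT in this change was 0.65 ± 0.148 at 24 h (adjusted p = 0.00754) and 0.67 ± 0.148 at 36 h (0.0025). The value at 24 h was no longer called without replicate 3 of WT at 0 h, at 0.54, or in a fit of the 4 groups alone, at 0.64. KO against WT was -0.35 ± 0.105 at 0 h (adjusted p = 0.035) and 0.32 ± 0.104 at 36 h (0.0331). The call at 0 h was lost without replicate 1 (-0.34) or 3 (-0.24) of WT or replicate 2 (-0.25) or 3 (-0.41) of KO. The call at 36 h was lost without replicate 2 (0.25) or 3 (0.32) of WT or replicate 1 (0.34), 2 (0.31) or 3 (0.32) of KO. At 24 h the difference of 0.29 ± 0.104 was not called (adjusted p = 0.0714). It was called with library totals alone (0.30, adjusted p = 0.032), by the DESeq2 Wald test (0.27, 0.0494) and with the title number as a replicate block (0.27, 0.0208). A second gene, AC010768.1, overlaps exons of CD82 on the opposite strand in GENCODE 29.

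From 12 to 24 h CD82 fell by 0.32 (log2) in WT, with an adjusted p of 0.0324. This call was lost without replicate 1 (-0.25) or 3 (-0.30) of WT at 12 h, and without replicate 1 (-0.30), 2 (-0.33) or 3 (-0.27) of WT at 24 h. In KO the same step was -0.09 and was not called.

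CD83 (chr6:14117256-14136918, plus strand), the immunoglobulin family protein, rose to a peak at 6 h, and its later course differed by genotype. At 0 h it was at 57.5, 52.6 and 53.7 CPM in WT and 52.6, 45.4 and 54.9 CPM in KO. At 6 h it was at 173, 163 and 166 CPM in WT and 184, 183 and 200 CPM in KO. At 12 h it was at 132, 116 and 119 CPM in WT and 119, 111 and 118 CPM in KO. The genotypes overlapped at 0 and 12 h, and at 6 h the KO libraries were all slightly higher. At 24 h CD83 was at 87.8, 99.9 and 101 CPM in WT and 53.2, 57.1 and 51.0 CPM in KO, and at 36 h at 92.7, 79.6 and 86.9 CPM in WT and 48.7, 48.4 and 52.5 CPM in KO. At these times every KO library was below every WT library and near the 0 h level.

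In WT the change of CD83 from 0 h was 1.61 ± 0.0935 (log2) at 6 h, 1.16 ± 0.0930 at 12 h, 0.81 ± 0.0929 at 24 h and 0.66 ± 0.0928 at 36 h, all called, the last with an adjusted p of 2.25e-07. In KO it was 1.88 ± 0.0946 and 1.17 ± 0.0934 at 6 and 12 h, and then 0.07 ± 0.0934 and -0.04 ± 0.0934 at 24 and 36 h, with adjusted p-values of 0.649 and 0.781. KO against WT was -0.84 ± 0.0925 at 24 h (adjusted p = 3.12e-08) and -0.80 ± 0.0925 at 36 h (6.53e-08). KO minus WT in the change from 0 h was -0.75 ± 0.132 at 24 h (adjusted p = 0.000377) and -0.70 ± 0.132 at 36 h (0.000463). The step from 12 to 24 h was -1.11 ± 0.0925 in KO and -0.35 ± 0.0912 in WT. The WT step, with an adjusted p of 0.00654, was lost without replicate 1 of WT at 12 h (-0.25) or at 24 h (-0.28). By the joint test of the change from 0 h CD83 ranked 53 by p among all tested symbols, ahead of the other 5 genes, with an adjusted p of 1.58e-07.

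**Figure D2:**
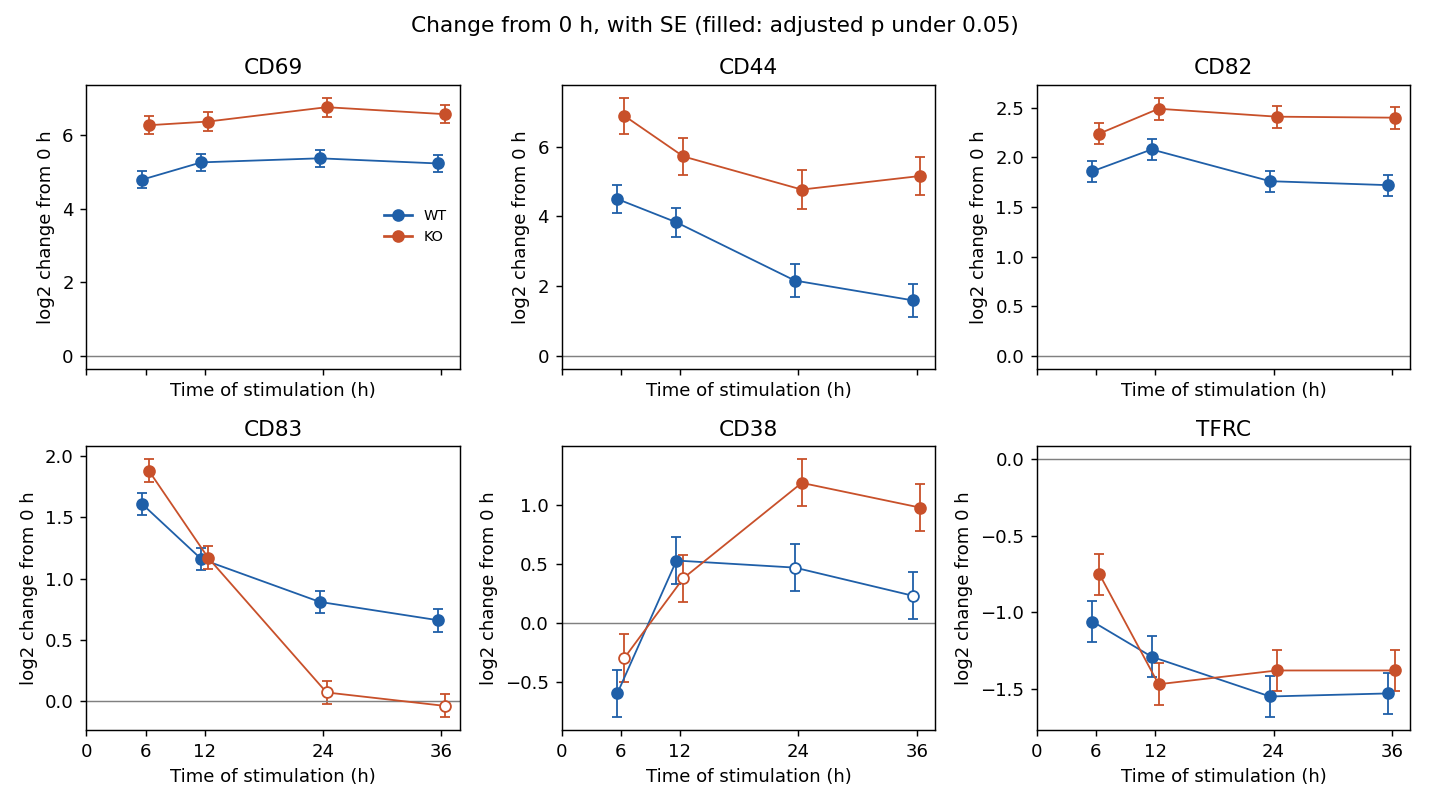
Log2 change from 0 h of the 6 genes against time in hours in WT (blue) and KO (orange), with the standard error of the fit as bars and filled points where the adjusted p was under 0.05. The KO points of CD69 and CD82 lie above those of WT at every time, and those of CD83 drop to 0.07 and -0.04 at 24 and 36 h while WT stays at 0.81 and 0.66.

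RefSeq promoter windows, 250 bases before to 50 bases after a start site on GRCh38.p14, were given for 5 of the 6 genes. Letters of 7 motifs were counted in them on both strands: AP-1 (TGANTCA), the cAMP response element (TGACGTCA), EGR (GCGNGGGCG), the E-box of MYC and MAX (CACGTG), the GC box (GGGCGG), the NFAT core (GGAAAA) and NF-kB, by its usual 10-base consensus. The motifs and the promoters shown were chosen with the levels known. The downstream of 2 start sites of CD83 was the only window among these genes with EGR or NF-kB letters. It held 2 separate NF-kB stretches, and 0.664% of all 35116 windows had at least that many. It also held 3 EGR matches, and 0.333% of windows had at least that many. Of the letters of this window 81.3% were G or C, and the shares are over windows of any G and C content. An NF-kB match of any number stood in 9.08% of windows and an EGR match in 9.43%. The EGR letters can overlap a GC box. The stretch of this window that precedes the first exon starting in it is shown because it carries 2 of these EGR matches, and that of CD82 because its window had 4 GC boxes, a number reached by 9.06% of windows, and none of the other 6 motifs. Capitals mark EGR and GC box letters in the first pair of lines and NF-kB letters, with 6 bases on each side, in the last pair. The NF-kB stretches start 76 and 50 bases before the RefSeq start site, inside the first exon of a CD83 transcript in GENCODE 29.
CD83, chr6:14117522-14117640, plus strand: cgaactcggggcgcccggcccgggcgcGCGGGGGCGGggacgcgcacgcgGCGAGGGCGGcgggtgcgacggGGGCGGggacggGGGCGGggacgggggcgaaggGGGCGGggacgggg
CD82, chr11:44565413-44565590, plus strand: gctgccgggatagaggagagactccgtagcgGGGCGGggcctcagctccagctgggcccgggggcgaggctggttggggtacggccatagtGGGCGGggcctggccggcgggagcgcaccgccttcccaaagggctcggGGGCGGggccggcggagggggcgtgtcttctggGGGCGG
CD83, chr6:14117690-14117713, plus strand: cccgccGGGGAATCCCCCgggctg
CD83, chr6:14117716-14117737, plus strand: gcgcagGGAAGTTCCCgaacgc

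No AP-1, cAMP response element or E-box letters stood in any of these windows, beside 7.71%, 1.85% and 7.26% of all windows. A match is a description of letters, and its absence says only that the letters are not in the window.

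CD38 (chr4:15778275-15853230, plus strand), the NAD-consuming ectoenzyme, dipped at 6 h and then rose in WT, and rose late in KO. At 0 h it was at 27.9, 29.1 and 29.96 CPM in WT and 31.0, 29.4 and 30.1 CPM in KO. At 6 h it was at 20.2, 16.6 and 20.7 CPM in WT and 30.7, 14.8 and 28.2 CPM in KO, and at 12 h at 42.4, 41.9 and 41.0 CPM in WT and 59.4, 29.1 and 29.8 CPM in KO. The WT libraries of each time lay close together, while in KO 1 library stood apart at 6 h and 1 at 12 h. At 24 h CD38 was at 42.7, 40.5 and 37.2 CPM in WT and 65.9, 64.4 and 76.0 CPM in KO, and at 36 h at 33.4, 34.8 and 33.7 CPM in WT and 58.0, 58.0 and 62.3 CPM in KO. At both of these times every KO library was above every WT library.

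KO against WT for CD38 was 0.78 ± 0.197 (log2) at 24 h (adjusted p = 0.00927) and 0.81 ± 0.198 at 36 h (0.00505), 1.71-fold and 1.75-fold. The change from 0 h in KO was 1.19 ± 0.200 at 24 h and 0.98 ± 0.200 at 36 h, with adjusted p-values of 1.77e-05 and 0.000208. In WT it was 0.47 ± 0.200 and 0.23 ± 0.201, not called. At both times every WT library was above every WT library of 0 h. The WT value at 24 h was called without a filter on low counts (0.49, adjusted p = 0.0056). The DESeq2 Wald test (0.48, adjusted p = 0.0467) and a fit of these groups alone (0.50, 0.0065) called it too. KO minus WT in the change from 0 h was 0.72 ± 0.282 at 24 h (adjusted p = 0.177) and 0.75 ± 0.283 at 36 h (0.0953), and by the joint test the adjusted p was 0.0693, so it was not called. It was called at both times in fits of the compared groups alone, at 0.72 and 0.76, and without a filter on low counts, at 0.73 and 0.77, and at 36 h by the DESeq2 Wald test, at 0.77. The joint test called it without replicate 1 (adjusted p = 0.0453) or 2 (0.00544) of KO at 6 h, without replicate 1 of KO at 12 h (0.000133) and without a filter (8.48e-05).

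In WT, CD38 was at -0.60 ± 0.203 (log2) at 6 h against 0 h (adjusted p = 0.0316) and at 0.53 ± 0.200 at 12 h (0.0454). Each of these calls was lost when any 1 library of the 2 groups was left out, with values from -0.65 to -0.50 at 6 h, without replicates 3 and 2 of WT at 6 h, and from 0.46 to 0.54 at 12 h, without replicates 1 and 3 of WT at 0 h. The step from 6 to 12 h was 1.12 ± 0.202 in WT (adjusted p = 0.000354). In KO it was 0.69 ± 0.198 (0.0213), and it was 0.26 without replicate 1 of KO at 12 h and 0.42 without replicate 2 of KO at 6 h, neither called. Without replicate 2 of KO at 6 h, CD38 was higher in KO than in WT at 6 h by 0.63 (adjusted p = 0.0168), against 0.36 and not called with it.

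TFRC (chr3:196027183-196082189, minus strand), the transferrin receptor, fell at all 4 later times in both genotypes. At 0 h it was at 667, 655 and 655 CPM in WT and 524, 529 and 511 CPM in KO. At 6 h it was at 296, 309 and 346 CPM in WT and 344, 249 and 334 CPM in KO, and at 12 h at 275, 273 and 258 CPM in WT and 244, 177 and 145 CPM in KO. KO was below WT without overlap at 0 and 12 h, and the genotypes overlapped at 6 h. At 24 h TFRC was at 238, 239 and 198 CPM in WT and 186, 170 and 243 CPM in KO, and at 36 h at 247, 215 and 223 CPM in WT and 207, 189 and 203 CPM in KO. The genotypes overlapped at 24 h, and at 36 h every KO library was below every WT library.

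The change of TFRC from 0 h in WT was -1.06 ± 0.134 (log2) at 6 h and -1.53 ± 0.136 at 36 h, with adjusted p-values of 1.33e-07 and 1.33e-11. In KO it was -0.75 ± 0.134 and -1.38 ± 0.136. By the joint test the change did not differ between genotypes past the threshold, with an adjusted p of 0.369, but without replicate 1 of KO at 12 h it did, with an adjusted p of 0.0416. The 4 differences in change were between -0.17 and 0.30, each with a standard error of 0.188 or 0.189. KO against WT was -0.51 ± 0.134 at 12 h (adjusted p = 0.00985). It was -0.73 and called without replicate 1 of KO at 12 h, the library that stood apart, and was -0.45 without replicate 2 and -0.33 without replicate 3 of KO at 12 h and -0.55 in a fit of these groups alone, none of them called. It was -0.34 ± 0.133 at 0 h (adjusted p = 0.13), where a fit of these groups alone called it, at -0.35 with an adjusted p of 0.00597. Over the 5 times the mean difference was -0.25 ± 0.0597, with an adjusted p of 0.00136.

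**Figure D3:**
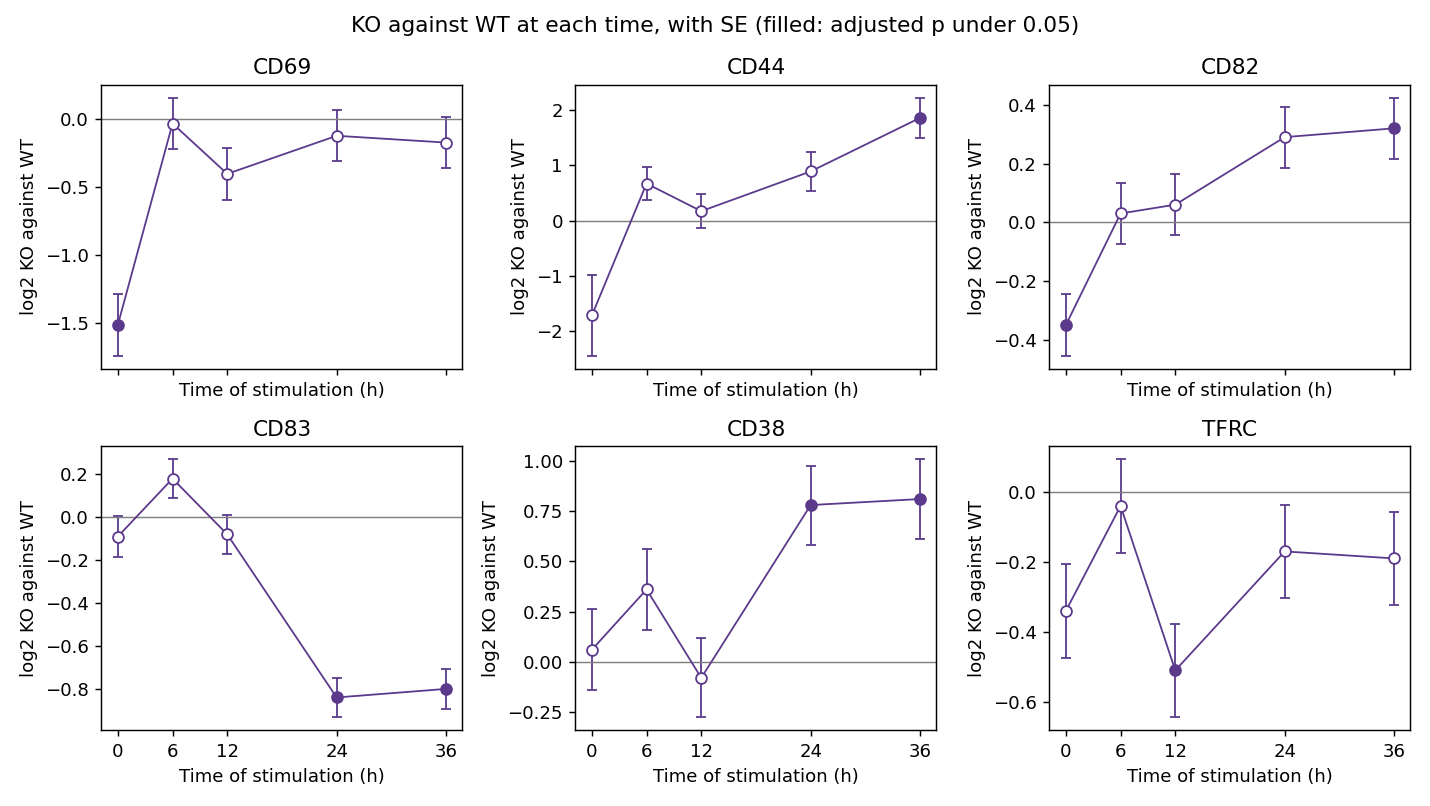
Log2 difference of KO against WT for the 6 genes at each time in hours, with the standard error of the fit as bars and filled points where the adjusted p was under 0.05. CD69 is apart at 0 h, at -1.51, CD83 lies at -0.84 and -0.80 and CD38 at 0.78 and 0.81 at 24 and 36 h, and CD44 reaches 1.86 at 36 h.

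The libraries that stood apart did so in some of the genes and not in others. Replicate 2 of KO at 6 h had 0.503 times the mean of the other 2 libraries for CD69, 0.501 times for CD38 and 0.733 times for TFRC, but 1.03 times for CD82 and 0.956 times for CD83. Replicate 1 of KO at 12 h had 1.53 times the mean of the others for CD69, 2.02 times for CD38 and 1.52 times for TFRC, and 1.20 and 1.04 times for CD82 and CD83. Their totals were 24.1 and 20.8 M counts, beside 22.2 and 21.1 M and 21.1 and 19.3 M for the other libraries of their groups. The part of depth in these distances was not tested.

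Without replicate 2 of KO at 6 h, the log2 change from 0 to 6 h in KO was 6.52 for CD69 against 6.27 with it, 7.03 for CD44 against 6.89, 2.22 for CD82 against 2.24 and 1.90 for CD83 against 1.88. It was -0.62 for TFRC against -0.75 and -0.04 for CD38 against -0.30, and the 5 calls were kept. KO minus WT in that change was 1.75 for CD69 against 1.48, still called, and the other 5 were not called with or without it. Without replicate 1 of KO at 12 h, the log2 change from 0 to 12 h in KO was 6.13 for CD69 against 6.37, 5.82 for CD44 against 5.72, 2.40 for CD82 against 2.49 and 1.15 for CD83 against 1.17. It was -1.70 for TFRC against -1.47, and -0.04 for CD38 against 0.38, not called in either case. KO against WT at 12 h was 0.28 for CD44 against 0.17 with that library, and -0.02 for CD82 against 0.06. For CD83 it was -0.08 with and without it, and none of these was called. The step of CD69 in KO from 12 to 24 h was then called, at 0.63 (adjusted p = 0.0249) against 0.40 with that library. The joint test of KO against WT called all 6 genes without either library.

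**Figure D4:**
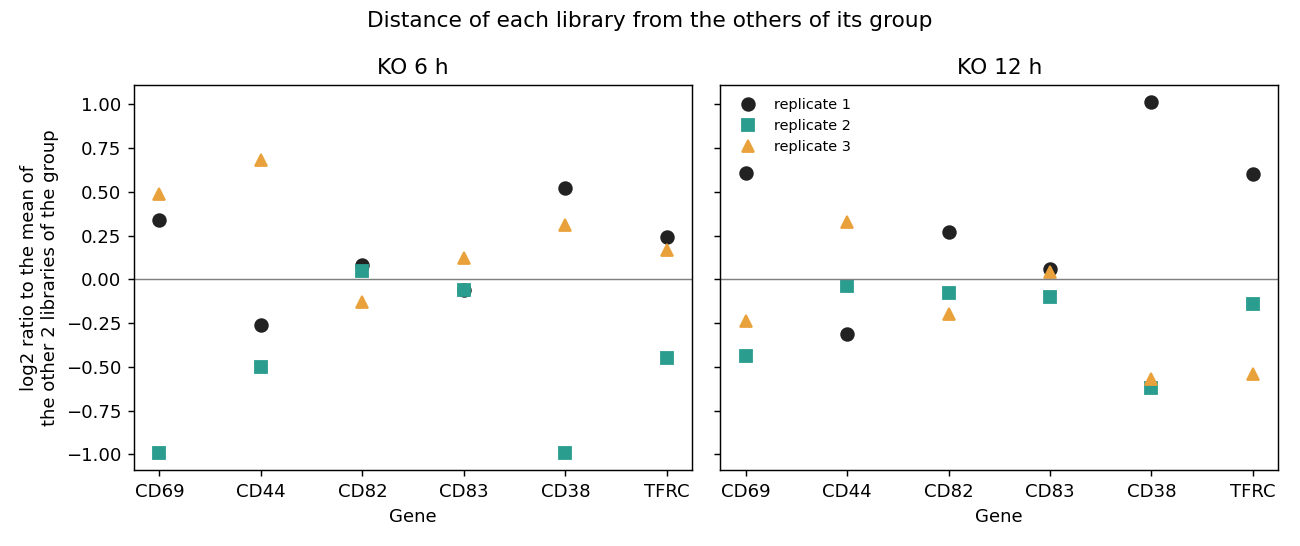
Log2 ratio of each KO library at 6 h (left) and 12 h (right) to the mean of the other 2 libraries of its group, by gene, with a marker per replicate. Replicate 2 at 6 h lies at -0.99 for CD69 and CD38 and replicate 1 at 12 h at 0.61 for CD69 and 1.01 for CD38, while CD83 stays between -0.10 and 0.12 in all 6 libraries.

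By group mean, CD82 was lowest in both 0 h groups and highest in KO and WT at 12 h. The 4 groups of CD83 at the bottom, KO at 36, 0 and 24 h and WT at 0 h, overlapped in turn, and KO at 6 h was alone at the top. CD38 was highest in KO at 24 and 36 h, and these did not overlap each other, but replicate 1 of KO at 12 h, at 59.4 CPM, lay within the range of KO at 36 h. TFRC was highest in both 0 h groups, with no overlap between these or with the rest, and its 5 lowest groups overlapped in turn. Over the 9 pairs of neighbouring groups in each order, libraries overlapped in 7 pairs for CD69, 5 for CD44, 6 for CD82, 5 for CD83, 6 for CD38 and 6 for TFRC.

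Other receptors of T cell activation, 20 genes, mostly rose with CD69. In WT 14 were higher and none lower at 6 h, where 22.4% of all tested symbols were called in WT and 27.1% in KO, with a list median of 2.33 (log2) against 0.03 over all tested symbols, and in KO 14 were higher and none lower, with a median of 2.45. IL2RA, the alpha chain of the high-affinity IL-2 receptor, went from 1.23 ± 0.748 to 66.6 ± 2.38 CPM in WT and from 0.169 ± 0.169 to 59.8 ± 10.7 CPM in KO at 6 h (SD, n = 3). At 0 h it was lower in KO by the fit, at -2.25 (log2, adjusted p = 0.0139), as was CD69. The IL2RA mean in KO at 0 h was near the floor, since 3 counts correspond to 0.107 to 0.532 CPM in those libraries. CD40LG, the ligand of CD40, was at 22.7 ± 2.00 CPM in WT and 0.235 ± 0.113 CPM in KO at 0 h. CD28, the costimulatory receptor, was lower in KO at 36 h, at 148 ± 10.4 against 376 ± 20.4 CPM. IL2RB, the beta chain, was higher in KO at 36 h, at 27.5 ± 2.62 against 10.2 ± 1.20 CPM.

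Transcription factors of activation, 20 genes, also moved upward on balance. In WT 15 rose and 2 fell at 6 h, with a median of 1.92, and in KO 14 rose and none fell, with a median of 1.70. These stand beside 22.4% and 27.1% of all tested symbols called, with a median over all tested symbols of 0.03 in each genotype. EGR1, an immediate early zinc finger factor, was at 9.24 ± 1.34 CPM in WT and 1.27 ± 0.187 CPM in KO at 0 h, a log2 difference of -2.75 (adjusted p = 1.62e-09). At 12 h it was at 562 ± 16.2 and 570 ± 116 CPM, with a difference of 0.02 that was not called. JUNB, a subunit of AP-1, was higher in KO at the 4 later times, by 0.77 to 1.29. RELB and NFKB2, subunits of NF-kB, rose at every later time in both genotypes, by 2.91 to 4.58.

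Among 13 genes chosen as context for CD69, mostly its partners or its neighbours in the same gene complex, 11 were tested. At 36 h in WT 6 rose and 1 fell, beside 39% of all tested symbols called, with a median of 0.99 against 0.01 over all tested symbols. S1PR1, the receptor that CD69 takes off the surface, fell from 25.6 ± 5.28 to 7.17 ± 0.710 CPM in WT and from 27.3 ± 0.487 to 1.39 ± 0.982 CPM in KO by 36 h. KO against WT was -2.43 (log2) at 36 h (adjusted p = 4.27e-05). LGALS1, galectin-1, a ligand of CD69, was lower in KO at each of the 5 times, by -0.84 to -1.95. CLEC2B, a related lectin, rose with no genotype difference called at any time, from 8.77 ± 2.46 CPM at 0 h to 160 ± 11.8 CPM at 12 h in WT and from 6.99 ± 0.891 to 176 ± 20.2 CPM in KO.

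Of 18 genes for hyaluronan synthesis and binding, membrane linkers, shedding and splicing of CD44, 5 rose and 2 fell in WT at 6 h, with a median of -0.11, and 4 rose and 4 fell in KO, also with -0.11, beside 22.4% and 27.1% of all tested symbols called. ADAM17, a protease of the cell surface, rose at every later time in both genotypes, by 0.95 at 6 h in WT and by 1.52 in KO. ADAM10, a related protease that sheds CD44, was lower in KO at 6, 12 and 36 h, by -0.83, -1.14 and -0.88. HMMR, another hyaluronan receptor, was lower at 36 h than at 0 h, by -2.22 (log2) in WT and -2.69 in KO. SRSF1, a splicing factor, fell at all 4 later times in both genotypes.

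Of the 18 tetraspanins and their partners 17 were tested, and in WT 3 rose and 3 fell at 6 h (median -0.06) and 8 rose and 3 fell at 36 h (median 0.43), beside 22.4% and 39% of all tested symbols called. In KO 7 rose and 5 fell at 36 h (median 0.14), beside 36.6%. CD53, a tetraspanin of leukocytes, rose with CD82, from 122 ± 10.1 to 301 ± 16.9 CPM at 24 h in WT and from 186 ± 22.2 to 517 ± 3.70 CPM in KO. It was higher in KO at all 5 times, by 0.61 to 0.98. CD9 was lower in KO at 6 h, at 0.159 ± 0.148 against 2.57 ± 0.425 CPM.

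Of 8 genes of antigen presentation and costimulation, chosen as context for CD83, 6 were tested. At 36 h 4 rose and 1 fell in WT (median 1.27), and 3 rose and none fell in KO (median 0.66), beside 39% and 36.6% of all tested symbols called. MARCH8, a ubiquitin ligase that takes MHC class II off the surface, rose at 36 h by 0.94 in WT and by 0.96 in KO. HLA-DRB1 had the smallest p of this list in the joint test of the 5 genotype differences (adjusted p = 3.30e-08). CD80 and CD86 did not exceed a group mean of 1.47 CPM.

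Around CD38, 16 genes of NAD and adenosine metabolism were examined and 14 tested. In WT 5 rose and 3 fell at 6 h (median -0.15), and in KO 4 rose and 4 fell (median -0.00), beside 22.4% and 27.1% of all tested symbols called. ENPP1 and NT5E, ectoenzymes that act on nucleotides beside CD38, rose sharply: ENPP1 from 2.03 ± 0.482 to 150 ± 5.89 CPM at 6 h in WT and from 1.77 ± 0.494 to 46.5 ± 6.04 CPM in KO, and NT5E from 2.50 ± 0.283 to 37.5 ± 3.45 CPM and from 2.43 ± 0.738 to 46.5 ± 15.6 CPM. ENPP1 was lower in KO at all 4 later times, with a log2 difference of -1.69 at 6 h and of -1.01 at 24 h. NAMPT, which makes NAD by salvage, was higher in KO at all 4 later times, by 0.71 to 0.97. ADA, adenosine deaminase, changed by -4.10 (log2) in WT and by -4.54 in KO by 36 h.

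Of 18 genes of iron uptake, storage and control 16 were tested. In WT 5 rose and 3 fell at 6 h (median 0.08), and in KO 4 rose and 2 fell (median 0.12), beside 22.4% and 27.1% of all tested symbols called. ZC3H12A, an RNase that degrades the transcript of TFRC among others, rose from 12.5 ± 2.25 to 58.4 ± 3.40 CPM at 6 h in WT and from 15.2 ± 1.85 to 86.0 ± 10.2 CPM in KO. SLC40A1, the iron exporter, fell with TFRC at all 4 later times, with log2 changes of -0.71 at 6 h and -1.08 at 36 h in WT and of -0.93 and -1.63 in KO. TFR2, the second transferrin receptor, was higher in KO at all 5 times, by 0.95 to 1.61. FTH1, the heavy chain of ferritin, was higher at 6 h and lower at 24 and 36 h in both genotypes.

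Across the 30 libraries, the log2 level of CD69 followed that of CD82 with a Pearson r of 0.971 and ran against that of TFRC with an r of -0.838. CD83 and CD38 had an r of -0.552. The libraries share their times, along which all of these genes changed, so the values are descriptions. Among 9785 genes that reached 10 CPM in some group, those most like CD69 were EGR2 and IER3 (0.986 each) and TRAV8-4 (0.978), and those most like CD82 were IER3 (0.98), TRAV17 (0.979) and ZFP36L1 (0.976). The nearest to CD44 were PTGS1 (0.948), ASAP1 (0.94) and AFTPH (0.929), and to CD83 ATP6V0A4 (0.935), CHSY1 (0.904) and H3F3B (0.893). TBL1XR1 (0.872), SLC4A4 (0.849) and CAPG (0.844) were nearest to CD38, and UHRF1 (0.949), RBM14 (0.948) and SHQ1 (0.946) to TFRC.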

How the data were processed

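RNA sequencing libraries of 30 Jurkat samples in 10 groups were used. The authors deposited 1 file per library with an expected count for each gene symbol. Values that were not whole, 0.177% of all and found in 195 of 54300 symbols, were rounded. Per the submitters' processing notes, the tools included cutadapt, STAR and DESeq2 and the builds were GRCh37 and hg19. Which program and annotation the reads were counted with is not given in the sources used here. Gene positions are from GENCODE 29 on GRCh38, matched by symbol, not the authors' build.

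Counts were fitted with edgeR 4.0.16 in R 4.3.3: filterByExpr at a minimum count of 10, TMM scaling, robust dispersion estimation, a mean for each of the 10 groups, quasi-likelihood F tests and Benjamini-Hochberg adjustment within each comparison. The standard error is the log2 change divided by the square root of F. Robust estimation was adopted after a fit without it had been run, because it gives the values of an earlier processing of these data. The fit was tested on simulated data. Precision follows the 5.64 to 28.2 M counts per library. Floors of 3 counts cover counting error only.

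The 6 genes and the gene lists were chosen with earlier results of these data known. Text names these 6, SLAMF6 and the 3 genes most correlated with each of the 6. From each list it names some of the up to 4 called genes of smallest joint p over the later times in WT and of the up to 4 over the 5 genotype differences. Not every gene that met this rule is described, and CD226, CD5, BATF, JUN, QPRT, TSPAN5 and TSPAN14 are among those left out. Named as markers, after their values were seen, are BLK, CD14, CD1C, CD79A, CD80, CD86, ITGAX, KLRD1, LYZ, MS4A1 and VIM, and the sum of 1 marker list is not reported here. Alternatives were DESeq2 1.42.0 (size factors or Wald test), library totals, no filter, the compared groups alone, a replicate block, each library left out, and no robust estimation, the last added after seeing the data.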

Additional observations from a re-analysis of the deposited data

Results flagged for a closer look

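The change from 0 h differed between WT and KO, by the test of that difference itself, for 4 of the 6 genes. For CD69, KO minus WT in the log2 change from 0 h was 1.48 at 6 h, 1.11 at 12 h, 1.39 at 24 h and 1.34 at 36 h. Its level at 0 h was lower in KO in all 3 libraries, and its levels at the later times overlapped. For CD82 the difference was 0.65 at 24 h and 0.67 at 36 h, and for CD44 it was 3.58 at 36 h, with 6 counts in all of KO at 0 h. For CD83 it was -0.75 at 24 h and -0.70 at 36 h, with levels at 0 h that overlapped.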

How the results depend on the processing

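Of 2033 values of the 6 genes under alternatives, 1895 kept their direction and side of the threshold, 63 lost and 34 gained the call, and 41 changed sign. The 41 belong to 22 results, and none of the 22 was called in the reported fit. Without robust estimation, an alternative added after seeing the data, all 144 values kept direction and call. The cause of the changes was not tested. A fit of the compared groups alone has fewer libraries behind its spread, and more symbols passed the filter when a library was left out.

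With DESeq2 size factors, library totals alone or no filter, 0 of 6 genes were called for the difference in the change from 0 to 12 h, where 1 was reported. Without a filter, 1 was called in WT from 12 to 24 h, 2 for the difference in change to 6 h and 5 for that to 24 h, and the DESeq2 Wald test called 2 for that to 6 h. With the compared groups alone, 6 were called in WT and 2 in KO from 6 to 12 h, and 0 for KO against WT at 12 h. With 1 library left out, the genes called for KO against WT were 1 to 2 at 0 h, 0 to 1 at 6 h and 0 to 2 at 12 h. They were 1 to 3 in WT from 12 to 24 h, and for the difference in change 1 to 2 at 6 h and 0 to 1 at 12 h.

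Sign changes under other scalings or tests were small. KO against WT of CD82 at 12 h was -0.01 with DESeq2 size factors, library totals and the Wald test, and with library totals it was -0.01 at 6 h. CD82 in WT from 24 to 36 h and CD83 in KO at 36 h were 0.01 with library totals, and CD38 in WT from 12 to 24 h was 0.00 without a filter. The difference in change of CD83 to 12 h was -0.02 with size factors, -0.07 with library totals and -0.03 by the Wald test.

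With 1 library left out, the difference in change to 12 h ran from -0.05 to 0.11 for CD83, -0.55 to 0.05 for CD38 and -0.39 to 0.02 for TFRC. KO against WT ran at 6 h from -0.21 to 0.24 for CD69 and -0.12 to 0.10 for TFRC, at 12 h from -0.02 to 0.15 for CD82 and -0.49 to 0.11 for CD38, and at 24 h from -0.22 to 0.11 for CD69. From 12 to 24 h it was -0.06 to 0.24 for CD69 and -0.10 to 0.03 for CD38 in WT, and -0.13 to 0.00 for CD82 and -0.05 to 0.31 for TFRC in KO. From 24 to 36 h it was -0.25 to 0.09 for CD69, -0.12 to 0.04 for CD82 and -0.04 to 0.07 for TFRC in WT, and -0.06 to 0.04 for CD82 and -0.11 to 0.14 for TFRC in KO. CD69 in KO from 6 to 12 h ran from -0.16 to 0.28. Against 0 h, KO gave -0.04 to 0.56 for CD38 at 12 h, and -0.00 to 0.16 at 24 h and -0.11 to 0.04 at 36 h for CD83.

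The values do not settle whether the title numbers pair the samples. Of 12 same-numbered pairs of WT and KO, 1 had a correlation of deviations above 0.1, while 9 correlated best with their own number. With the title number as a replicate block, possible at 0 to 24 h, 2, 0, 1 and 3 genes were called for KO against WT at the 4 times, against 2, 0, 1 and 2 reported. The gain was CD82 at 24 h, at 0.27 with an adjusted p of 0.0208.

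Over all tested symbols, the compared groups alone gave 4034 calls in WT and 1401 in KO from 6 to 12 h, against 2045 and 2355, 986 against 2058 for KO against WT at 24 h, and 508 against 794 for the difference in change to 24 h. The DESeq2 Wald test gave 1062, 710 and 1245 calls for the differences in change to 6, 12 and 24 h, against 666, 440 and 794. Of the 710, 56.9% had a higher log2 change from 0 h in KO than in WT, against 68.9% of the 440. Leaving out 1 library moved calls by more than 1.5 times in several comparisons, at most from 1582 to 749 for KO from 24 to 36 h. Depth limits CD44 at 0 h.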

Other observations

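Of the markers of other cell types, VIM, an intermediate filament gene also expressed by leukocytes, had group means from 70.8 to 1095 CPM, with the highest in KO at 12 h. KLRD1, a lectin gene in the same gene complex as CD69, had group means from 0.114 to 12.2 CPM, and ITGAX from 0.0692 to 7.62 CPM, both with the highest in KO at 36 h. These values were not part of any comparison above.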
